A study of Homo sapiens with 18 samples.

Results

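MICAL2 was examined as 1 gene across the QKI eCLIP peak lists of a cardiomyocyte differentiation course. Its members were all rows of the 12 deposited lists that overlap chromosome 11, 12115543 to 12285334 (hg19), on the plus strand, an interval of 169792 nt. There were 171 such rows among 889743 in all, 52 of them in a window of 1033 nt near the gene's 3′ end (12284050 to 12285082) and 119 in the rest of the gene. The window was chosen from these same libraries, because its peaks were reproducible at day 4 and day 8 and nearly absent at day 0. Its differences from day 0 are therefore given as a description, with no test.

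All libraries came from 1 line of human embryonic stem cells, HUES6. Day 0 libraries came from undifferentiated pluripotent cells. Day 4 libraries came from cardiac progenitors, after 1.5 uM CHIR with 1.5 ng/mL BMP4 and then 100 nM C59, and day 8 libraries from cardiomyocytes of the same course, collected once beating was seen. There were 3 IP libraries with anti-QKI antibody and 3 inputs per day, and ultraviolet crosslinking at 400 mJ/cm2 was used throughout. Whether replicate libraries were separate cultures is not in the labels, so their spread, which p-values over libraries measure, may be technical. The lists hold no expression values, so the labelled cell types could not be checked against their markers.

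QKI, a member of the STAR family of RNA-binding proteins, is known to regulate splicing through intronic ACUAAY-like elements and message stability through such elements in 3′ untranslated regions. eCLIP recovers the RNA fragments that a protein touches in living cells and scores each cluster of reads against a size-matched input. MICAL2 encodes a flavin monooxygenase that oxidises methionine residues of filamentous actin, which promotes disassembly of the filament. In the nucleus it is known to act on actin in the route that activates the transcription factor SRF through its actin-binding cofactors of the MRTF family, a route that drives many muscle and cytoskeletal genes. The exon structure of MICAL2 in hg19 was not used here, so no cluster is assigned to an exon, an intron or an untranslated region, and positions are given by distance to the ends of the interval. The RefSeq record of MICAL2 lists MICALCL as a synonym and spans 251551 nt in its own, later build, so the 3′ end used here is that of the shorter interval and not of that record. No genome of the files' build was used, and no sequence of the bound stretches is printed.

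Read depth was unknown, because the lists hold peaks and no reads. The libraries held 102085 to 187962 clusters at day 0. Numbers were 63319 to 99552 at day 4 and 52462 to 62897 at day 8. A passing peak had an authors' fold of IP over input of at least 4 and a p-value at or below 0.001, and libraries held 12695 to 15508 of them at day 0. Day 4 libraries held 3030 to 7775, and those of day 8 held 3726 to 10966.

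At the 3′ end of MICAL2 the day 0 libraries held almost nothing. Day 0 replicate 1 listed no cluster anywhere in the gene, replicate 2 listed 1 cluster in the window that did not pass, and replicate 3 listed 2, of which 1 passed. At day 4 the window held 5 clusters in each of replicates 1, 2 and 3. At day 8 it held 7, 9 and 7 in replicates 1, 2 and 3. All 15 clusters of day 4 and all 23 of day 8 passed, and every later library lay above every day 0 library. For comparison, 15.2%, 7.06% and 6.95% of all clusters passed in day 0 replicates 1, 2 and 3, 4.79%, 11.1% and 4.02% in those of day 4, and 12%, 6.09% and 17.4% in those of day 8. Nothing is read from the gene-end counts against these shares, because the window was chosen for its enriched peaks. The day 0 lists were the longest of the series, and the gene-end window was nonetheless the only stretch of MICAL2 with a listed day 0 cluster. These lists cannot tell fewer MICAL2 transcripts from less QKI on each transcript.

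**Figure D1:**
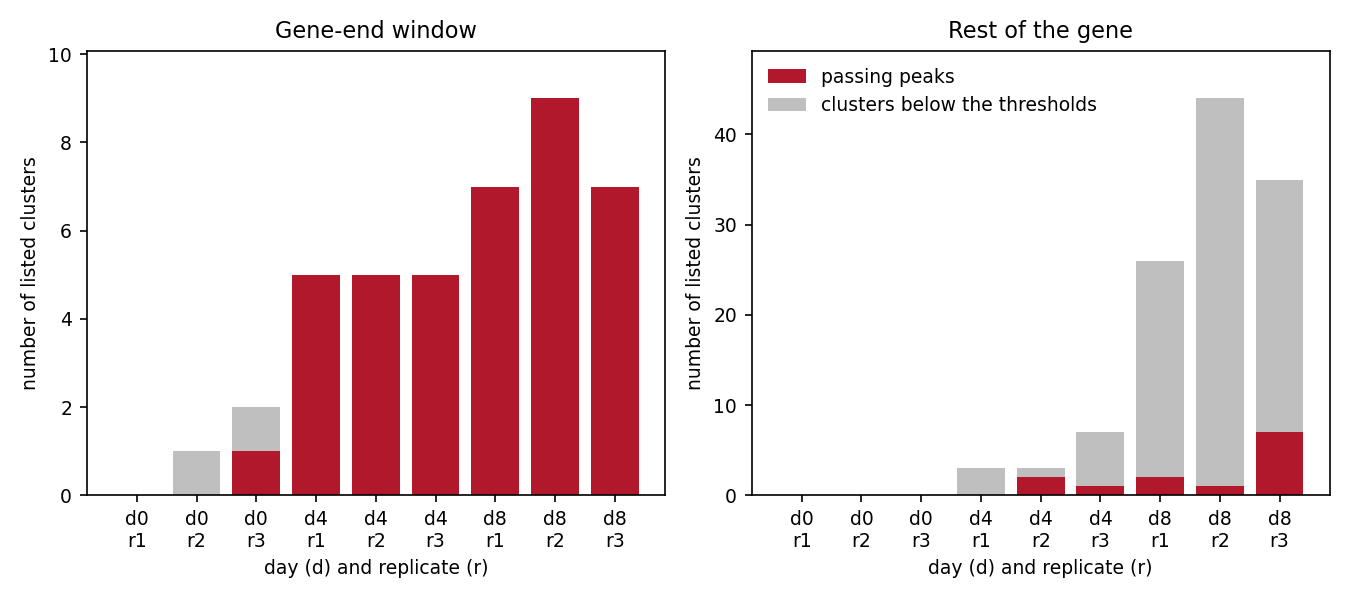
Number of listed clusters per IP library (x axis, day and replicate) in the gene-end window (left) and in the rest of MICAL2 (right), with passing peaks in red and other clusters in grey. Every day 4 library has 5 passing peaks at the gene end and the day 8 libraries have 7 to 9, while the rest of the gene holds 26 to 44 clusters at day 8 that mostly do not pass.

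The single day 0 passing peak lay inside the later cluster. It spanned 12284147 to 12284270 in replicate 3, 124 nt, with a log2 fold of 4.29 and a −log10 p of 3.66, near the threshold of 3. By fold it ranked 4956 among the passing peaks of that library, within the top 37.9%. The other day 0 clusters lay at 12284990 to 12285031 in replicate 2 and at 12285008 to 12285044 in replicate 3. Both had a log2 fold of 2.70 or 2.71, above 4-fold, and stayed out on p alone, with −log10 p of 1.14 and 1.02. The 3 day 0 clusters thus overlapped stretches that passed in every later library.

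The gene-end cluster was made of a longer 5′ block and a shorter 3′ block. Over the 6 later libraries passing peaks covered 12284045 to 12284407, 363 nt, and 12284960 to 12285089, 130 nt, with no passing peak in the 552 nt between them. The 3′ block ended 245 nt before the end of the gene interval. Within these blocks 278 nt lay in a passing peak of all 6 later libraries. This common core fell into 5 stretches, 12284061 to 12284083, 12284109 to 12284191, 12284206 to 12284262, 12284307 to 12284359 and 12284989 to 12285050, of 23, 83, 57, 53 and 62 nt. The day 0 peak covered 102 nt of the core, all of it in the 83-nt and 57-nt stretches.

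**Figure D2:**
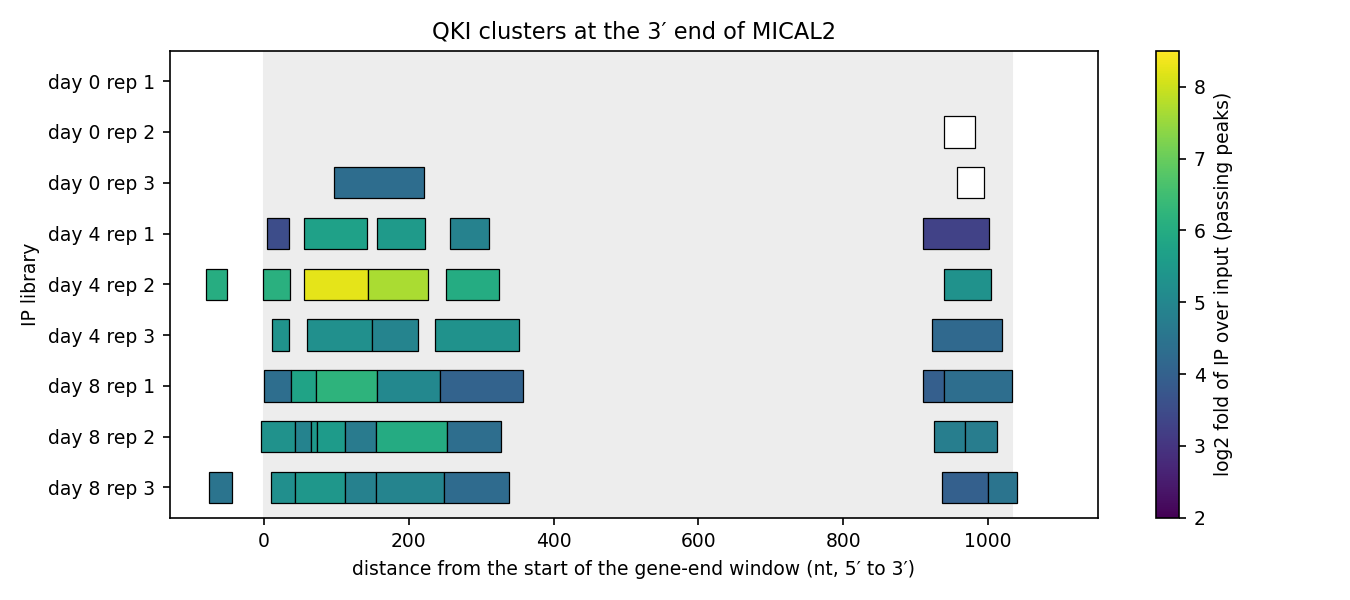
Position of every listed cluster at the 3′ end of MICAL2 in each IP library, as distance in nt from the start of the gene-end window (grey area). Passing peaks are coloured by log2 fold of IP over input and clusters that did not pass are white. The day 4 and day 8 libraries share a 5′ block and a 3′ block separated by 552 nt without a passing peak, and the highest fold, 8.23, is in day 4 replicate 2.

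More peaks at day 8 than at day 4 did not mean more separate bound stretches. The day 8 peaks touched each other end to end, and joining touching or overlapping peaks left 2 footprints in each day 8 library, against 5, 4 and 4 in day 4 replicates 1, 2 and 3. The covered length was larger at day 8. Passing peaks covered 481, 414 and 425 nt of the window in day 8 replicates 1, 2 and 3, against 327, 345 and 390 nt in those of day 4. This was 42.6% ± 3.48 of the window at day 8 and 34.3% ± 3.14 at day 4 (SD, n = 3 each). The 2 days did not overlap in covered length. This is a description, because the window's outer bounds are those of day 8 merged peaks and read depth was unknown. Within the 5′ block the spaces between the day 4 stretches were filled at day 8. The stretches passing in all 3 libraries were 317 nt and 76 nt long at day 8, against 5 stretches of 23 to 83 nt at day 4. Overlap between later libraries was counted over a slightly wider region than the window, which includes the passing peaks at 12283969 to 12284005. In it, shared positions made up 63.6% to 100% of either library's passing positions for pairs of different days. For pairs of the same day they made up 75.4% to 98.8%.

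Enrichment over input was strongest in the 5′ block. In day 4 replicates 1 and 2 the highest fold was at 12284105 to 12284191 and 12284105 to 12284193, with log2 folds of 5.70 and 8.23. In day 4 replicate 3 the highest, 5.35, belonged to a 23-nt peak at 12284061 to 12284083, followed by 5.28 at 12284286 to 12284401. In day 8 replicate 1 the highest log2 fold was 6.21 at 12284121 to 12284205. Replicate 2 of day 8 had its highest, 5.96, at 12284204 to 12284302, and replicate 3 its highest, 5.44, at 12284093 to 12284161. The top peak stood higher among the passing peaks of its library in some libraries than in others. It ranked 179, 67 and 387 in day 4 replicates 1, 2 and 3, within the top 5.91%, 0.862% and 9.68% of their lists. At day 8 it ranked 288, 262 and 1510 in replicates 1, 2 and 3, within the top 4.56%, 7.03% and 13.8%. Relative ranks of the 2 days thus overlapped, and day 8 replicate 3 had the lowest.

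The lowest fold of the window lay in the 3′ block in day 4 replicates 1, 2 and 3 (log2 folds 3.29, 5.31 and 4.19) and in day 8 replicates 1 and 3 (3.93 and 3.97). In day 8 replicate 2 it was 4.31, at 12284303 to 12284376, the last peak of the 5′ block. The p-values separated the days more than the folds did. The authors capped −log10 p at 400, and 3, 4 and 3 gene-end peaks of day 8 replicates 1, 2 and 3 reached the cap, all in the 5′ block, against 0 in each day 4 library, where the highest value was 55.8. A −log10 p grows with the number of reads as well as with the fold, and depth was unknown, so it is not read as a difference in enrichment.

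The authors' merged lists hold reproducible peaks of a day, defined by 4-fold enrichment and a 3-way IDR comparison. MICAL2 had none (0) in the day 0 list, 4 in the day 4 list and 8 in the day 8 list. The day 4 peaks were all in the window, at 12284105 to 12284193, 12284194 to 12284275, 12284286 to 12284401 and 12284989 to 12285053, with authors' log2 folds of 6.49, 6.07, 5.59 and 4.43. At day 8 there were 7 in the window. Those at 12284050 to 12284086, 12284087 to 12284120 and 12284121 to 12284205 had log2 folds of 4.90, 5.71 and 5.80, and those at 12284206 to 12284292 and 12284298 to 12284387 had 5.27 and 4.25. The 3′ block held the remaining peaks, at 12284960 to 12284988 and 12284989 to 12285082, with 3.60 and 4.43. The 23-nt core stretch, which passed in all 3 day 4 libraries, was in the day 8 merged list and not in that of day 4. The bounds of all 12 reproducible peaks were identical to those of a peak in 1 of the day's 3 libraries, so the split of the 5′ block into peaks takes over single-library intervals. At day 4 they were those of replicates 2 and 3, and at day 8 those of replicates 1 and 3.

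A peak just outside the window shows how far the chosen bounds matter. Day 8 replicate 3 had a passing peak at 12283974 to 12284005 (log2 fold 4.49) and day 4 replicate 2 had one at 12283969 to 12283998 (6.04), 39 nt or more 5′ of the 5′ block. The rule counts both in the rest of the gene. On the other side of the bound, peaks starting at 12284045 in day 8 replicate 2 and at 12284048 in day 4 replicate 2 counted as gene-end peaks because they reach into the window.

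The rest of the gene, 168507 nt upstream of the window, is called the gene body here, together with the 252 nt after the window, in which no cluster began. It had no cluster at all in any day 0 library. At day 4 it held 3, 3 and 7 clusters in replicates 1, 2 and 3, of which 0, 2 and 1 passed. At day 8 it held 26, 44 and 35, of which 2, 1 and 7 passed. Body clusters were more numerous in every day 8 library than in any day 4 library, although the day 8 lists were shorter. They made up 4.96, 7.19 and 5.57 of every 10000 clusters in day 8 replicates 1, 2 and 3, against 0.474, 0.429 and 0.703 in those of day 4 (two-sided exact permutation p = 0.1). Few passed. Of the 105 day 8 body clusters 95 did not pass, of which 28 were at least 4-fold and stayed out on p alone. Of the 105, 37 had a log2 fold under 1. At day 4, 7 of the 10 body clusters that did not pass were at least 4-fold. The share that passed was 7.69% and 2.27% in day 8 replicates 1 and 2 and 7 of 35 in replicate 3, against the 12%, 6.09% and 17.4% of all clusters in those libraries, which is lower in replicates 1 and 2 and higher in replicate 3. At day 4 it was 0 of 3, 2 of 3 and 1 of 7 in replicates 1, 2 and 3, against 4.79%, 11.1% and 4.02%, on few clusters.

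**Figure D3:**
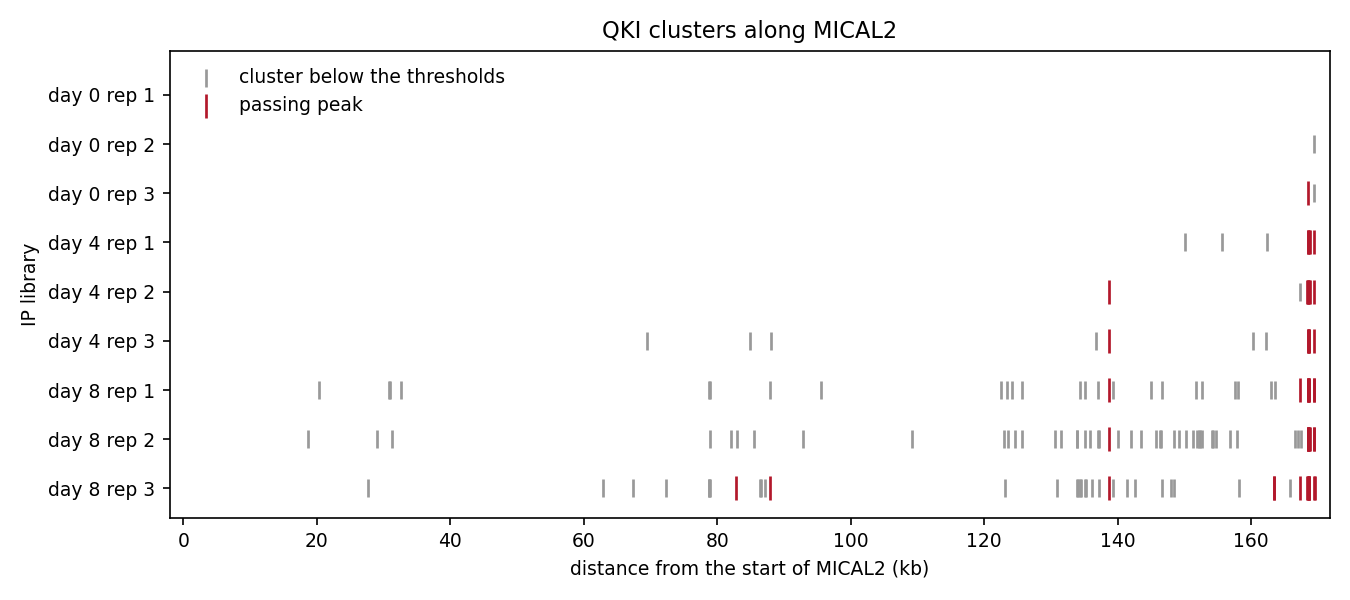
Position of every listed cluster along MICAL2 in each IP library, as distance in kb from the start of the gene interval, with passing peaks in red and other clusters in grey. At day 8 the 105 gene-body clusters lie mostly in the 3′ part of the gene and mostly do not pass, and the day 0 libraries list no cluster before the gene-end window.

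Body clusters were not spread evenly. With the body cut into 3 stretches of equal length, the day 8 clusters numbered 8, 21 and 76 from 5′ to 3′, and the day 4 clusters 0, 3 and 10. The day 8 cluster nearest to the gene start lay 18669 nt from it. No cluster was listed on the opposite strand of the interval in any of the 9 libraries, and none on the plus strand within 100 kb on either side of it.

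Most body positions were seen in 1 library. Joining overlapping clusters of all libraries gave 97 body regions, of which 81 came from 1 library, 13 from 2 and 3 from more. Passing peaks alone gave 7 body regions, 4 of them from 1 library and 2 from 2 libraries. The remaining region, at 12254288 to 12254378, was the most recurrent position outside the gene end and the only body position in a merged list. It passed in day 4 replicates 2 and 3 with log2 folds of 4.04 and 4.25, and in day 8 replicates 1, 2 and 3 with 4.50, 3.48 and 4.49. Day 4 replicate 1 and the day 0 libraries had no cluster there. The day 8 merged list gave the peak at 12254289 to 12254356, 30978 nt before the gene end, a log2 fold of 4.22.

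Passing body regions with 2 libraries were the one beside the window and one at 12282831 to 12282881, which passed in day 8 replicates 1 and 3 with log2 folds of 2.29 and 2.69. Day 8 replicate 3 alone supplied 7 of the 10 day 8 body passing peaks. Several of its peaks were near the limit. Those at 12198413 to 12198464 and 12278935 to 12278958 had a −log10 p of 3.003, just inside the threshold, and the cluster at 12194461 to 12194500, with 2.71, was just outside. Clusters at that last position were listed in all 3 day 8 libraries and passed in none.

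Gene-end clusters had higher median folds than body clusters in the libraries that had both. At day 4 the gene-end clusters had a median log2 fold of 5.31 and ranged over 3.29 to 8.23, against a median of 3.02 and a range of 0.02 to 6.04 for body clusters. At day 8 the gene-end values were a median of 4.82 and a range of 3.93 to 6.21, against 1.55 and 0.06 to 4.69. All gene-end clusters passed, against 3 of 13 body clusters at day 4 and 10 of 105 at day 8. These medians thus set passing peaks against mostly clusters below the thresholds. The highest passing body peak was 6.04 and 4.25 in day 4 replicates 2 and 3. It was 4.50, 3.48 and 4.69 in day 8 replicates 1, 2 and 3, above the gene-end median in replicate 1 only. Median widths were 73 nt for gene-end clusters and 34 nt for body clusters at day 4, and 44 nt and 37 nt at day 8. The window was picked for its enriched peaks, so this contrast is a description of where the enrichment lay. The gene-end medians also stood against the median of all passing peaks of the same library. They were 4.87, 6.11 and 5.25 in day 4 replicates 1, 2 and 3, where all passing peaks had medians of 3.51, 4.31 and 3.94, and 4.33, 4.90 and 4.82 in those of day 8, where these were 3.91, 4.20 and 4.27.

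**Figure D4:**
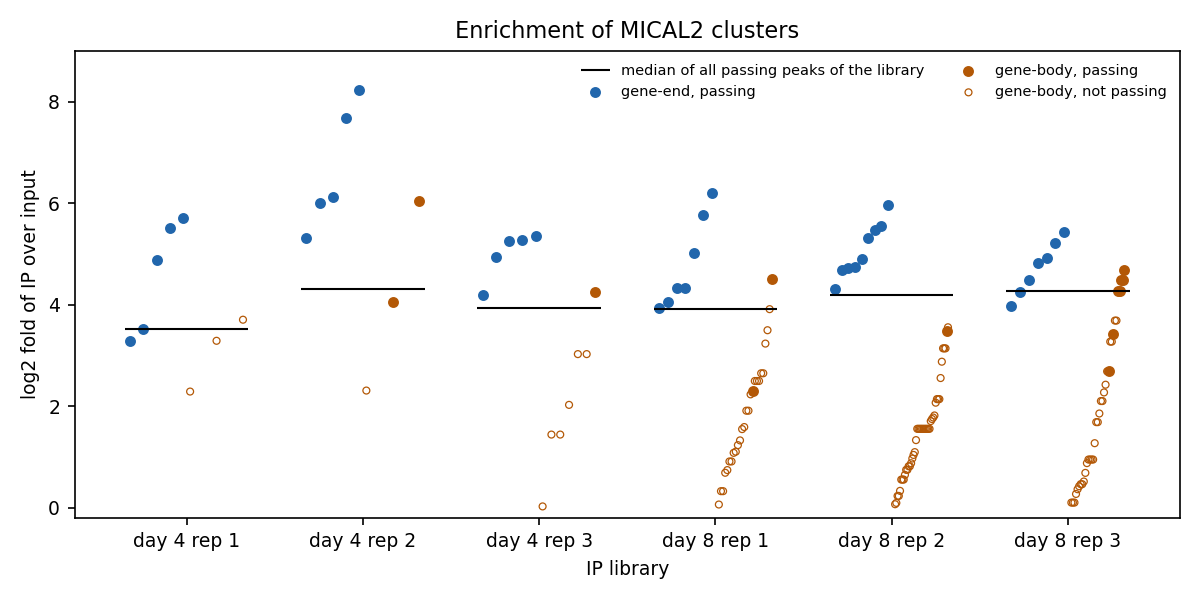
Log2 fold of IP over input for every MICAL2 cluster of the day 4 and day 8 libraries, with gene-end clusters in blue, gene-body clusters in orange, filled points for passing peaks and black lines for the median of all passing peaks of that library. All gene-end points are filled and lie between 3.29 and 8.23, and most gene-body points of day 8 are open and low.

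In every later library except day 8 replicate 3, the gene end held most of the gene's passing peaks. It held 7 of 9, 9 of 10 and 7 of 14 in day 8 replicates 1, 2 and 3, against 5 of 5, 5 of 7 and 5 of 6 in those of day 4. These were 72.6% ± 20.5 at day 8 and 84.9% ± 14.4 at day 4 (SD, n = 3 each), a difference of -12.3 percentage points that was within the spread between libraries (two-sided exact permutation p = 0.5). Over any listed cluster the difference was -37.3 points (exact permutation p = 0.1), and over merged footprints it was -35.9 points (exact permutation p = 0.2). Footprints join touching peaks, which left 2 at the gene end in each day 8 library. Their fraction therefore does not measure covered length. The window makes up 0.608% of the interval.

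Day 8 and day 4 were compared directly. The window was not chosen for a difference between these days, but it joins reproducible peaks of both and its outer bounds are those of the day 8 merged list, so it is not independent of either day. The gene-end window held 11.1, 24.2 and 6.38 of every 10000 passing peaks in day 8 replicates 1, 2 and 3, against 16.5, 6.43 and 12.5 in those of day 4. The days overlapped fully. A limma fit over 155 loci, each formed by reproducible peaks within 20 kb and holding at least 10 of them, gave a log2 difference in share of 0.08 (95% interval -0.98 to 1.13) for MICAL2, with a Benjamini-Hochberg adjusted p of 0.956. Of the 155 loci, 16.8% were called in either direction in this contrast, and the median locus differed by -0.24. The interval still includes a doubling at day 8 and nearly a halving, so a change of that size is not excluded. Over any listed cluster the log2 difference was 0.94 (-0.03 to 1.91, limma adjusted p = 0.132). Counted as footprints it was -1.40 (-2.52 to -0.28, limma adjusted p = 0.0951), the opposite sign, with an interval, not adjusted over loci, that leaves out 0. Joining touching peaks left 2 gene-end footprints in each day 8 library, against 5, 4 and 4 in day 4 replicates 1, 2 and 3. The covered length was larger at day 8, so the footprint value does not measure bound length. For passing peaks the log2 difference was -0.31 without day 4 replicate 2 and -0.42 without day 8 replicate 2. Its sign thus rested on single libraries.

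**Figure D5:**
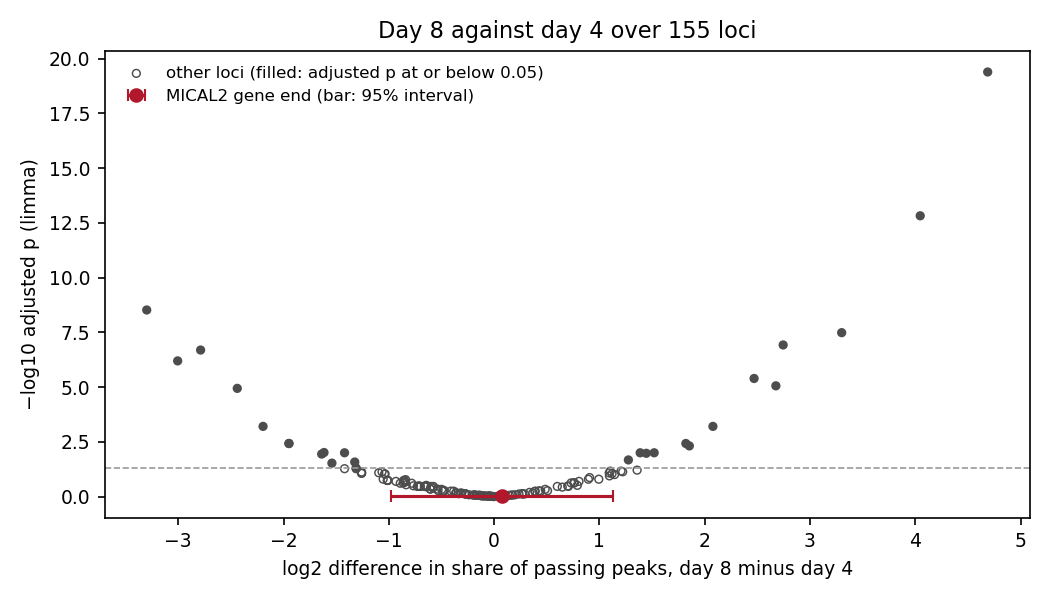
Log2 difference in share of passing peaks, day 8 minus day 4 (x axis), against −log10 of the limma adjusted p (y axis) for 155 loci, with the MICAL2 gene end in red and its 95% interval as a bar, and filled points for loci at or below 0.05. MICAL2 sits near 0 on both axes, at 0.08.

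The gene body's share of passing peaks was higher in each day 8 library than in each day 4 library, but not when libraries were cut to equal numbers of peaks. Its passing peaks made up 3.16, 2.68 and 6.38 of every 10000 in day 8 replicates 1, 2 and 3, against 0, 2.57 and 2.50 in those of day 4. The mean was 4.08 ± 2.01 at day 8 and 1.69 ± 1.47 at day 4 (SD, n = 3 each), a difference of 2.39 with a two-sided exact permutation p of 0.1, the smallest value that 3 against 3 libraries allow. Day 8 replicate 2 and day 4 replicate 2 were close, and the difference was 1.23 without day 8 replicate 3 and 1.54 without day 4 replicate 1. With the 3030 strongest peaks of each library, the body held 1, 1 and 0 peaks in day 8 replicates 1, 2 and 3, against 0, 1 and 1 in those of day 4, and the difference was 0 (exact permutation p = 1).

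Among the 155 loci the window was compact but not extreme. It held 11 reproducible peaks of the day 4 and day 8 lists, 10.6 per kb, against a median of 2.31 per kb over all loci, and ranked 36 by density and 25 from the narrowest. A position was counted once for each day's list that held it, so density also depends on how many days list a locus. A pattern of at most 1 passing peak over the day 0 libraries and at least 1 in each later library was shared by 3 of the 155 loci. The other 2 were minus-strand loci of chromosome 2, at 179506621 to 179558861 and 179585006 to 179623624. This count does not measure how rare the pattern is, because the window was chosen for it. The loci needed at least 10 reproducible peaks, and the merged lists held 7778 at day 0, 947 at day 4 and 1576 at day 8. Loci empty at day 0 were thus less likely to be included.

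The loci whose log2 share followed that of the MICAL2 gene end most closely over the 9 libraries were ranked by Pearson correlation, as a description. Both chromosome 2 loci were among the first 5, with r of 0.94 and 0.91. The closest, with r of 0.96, was a 48-nt locus on the minus strand of chromosome 6 (126301033 to 126301080), which held 1 passing peak in each day 0 library, 4, 4 and 2 in day 4 replicates 1, 2 and 3, and 4, 5 and 4 in those of day 8. The others lay on the plus strand of chromosome 17 (5142935 to 5144701, r of 0.92) and of chromosome X (107912090 to 107922919, r of 0.91). The chromosome 17 locus held 10, 5 and 8 passing peaks in the day 0 replicates and 7, 9 and 10 in those of day 8, so it was not one of the loci that were nearly empty at day 0. All 9 points share each library's total of passing peaks, which enters both shares.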

How the data were processed

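Each of the 9 IP libraries had its own peak list and each day 1 merged list. Per the file headers these are input-normalized peaks on hg19, and the merged lists passed a 4-fold, 3-way IDR filter. Of upstream tools, cutadapt, STAR and SAMtools are listed in the submitters' processing notes, with no version; the peak caller and duplicate handling are not given in the sources used here. The authors deposited a log2 fold of IP over input and a −log10 p-value per peak, capped at 400; all folds were the authors'. Only clusters above input were listed. The 9 input libraries entered only through these scores.

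Rows overlapping MICAL2 by at least 1 nt on its strand were taken, with coordinates 1-based. A peak touching the window counted as gene-end. For loci, the log2 share was log2((locus peaks + 0.5) / (all passing peaks of the library + 1) × 10000), modelled with limma 3.58.1 (R 4.3.3; lmFit, then eBayes with trend) on the 9 libraries together, Benjamini-Hochberg adjusted at 0.05; the prior degrees of freedom were infinite, so p-values rest on the trend. In 20 runs of simulated day 8 against day 4 data, with 40 of 155 loci changed, 1.5% of changed loci were recovered at 2-fold, 48% at 4-fold and 95.2% at 8-fold. The simulated spread was a fixed assumption, not estimated from these libraries, and each locus mean was taken over all 9 libraries. These rates therefore do not give the power for the MICAL2 window. Single values were compared by exact permutation tests over libraries, and in the replicate block by exact sign flips of paired differences. Other steps used Python 3.11.15.

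MICAL2, its window and all lists and rules were chosen with earlier results of these data known. Single peaks named are the reproducible ones, the strongest of each library, body positions passing in at least 3 libraries, the 5 loci of highest correlation, and, chosen after their values were seen, peaks at a bound or threshold, the day 0 clusters, the lowest gene-end peaks and body positions passing in 2 libraries. A list of related actin and MICAL genes was not analysed here, for want of hg19 gene positions. Alternatives covered the fold, the thresholds, equal numbers of peaks, footprints, the pseudocount, the trend, the joining distance, the replicate block and each library left out. Same-numbered libraries did not deviate together, so no pairing was used.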

Additional observations from a re-analysis of the deposited data

How the results depend on the processing

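For the gene-end share at day 8 against day 4, limma adjusted p lay between 0.0951 and 1 over 17 alternatives, and none passed. The log2 difference was 0.937 over any listed cluster, -1.404 with merged footprints and -0.026 with a pseudocount of 2. It lay between -0.424 and 0.525 when 1 library was left out. Joining touching gene-end peaks into footprints lowered their mean number from 7.67 to 2 at day 8, and from 5 to 4.333 at day 4. The cause of the other turned signs was not tested. The replicate block gave 0.076 (adjusted p = 0.965), and over all loci 23 calls against 26 without the block. Deviations of same-numbered libraries of day 8 and day 4 correlated at 0.195, -0.130 and 0.014, so no pairing by number was visible in the shares. Whether same-numbered libraries were made together is not in the labels. The gene-body share difference was 0 with equal numbers of strongest peaks (exact permutation p = 1) and 1.233 to 3.083 with 1 library left out. In the replicate block it was 2.386 (exact sign-flip permutation of paired differences, p = 0.25). That p is the smallest that 3 pairs allow, so it is not weaker support than the unpaired p. The gene-end fraction turned to 3.611 percentage points with equal numbers of strongest peaks (3030 per library). It was -37.27 over any listed cluster, -35.93 with merged footprints, and -21.03 to -1.032 with 1 library left out. The replicate block gave -12.33 (exact sign-flip permutation of paired differences, p = 0.5).

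Mean numbers of gene-end peaks were 1 at day 0 over any listed cluster, against 0.333 passing. At day 4 they were 4.333 as footprints and 5.333 with the window widened by 100 nt at each side, a setting chosen after seeing the data, against 5. At day 8 they were 6.333 with equal numbers of strongest peaks and 2 as footprints, against 7.67. Over any listed cluster the gene body held 4.333 at day 4 and 35 at day 8, against 1 and 3.33 passing. With 1 library of the day left out, gene-end means lay at 0 to 0.5 for day 0, at 5 for day 4 and at 7 to 8 for day 8, and gene-body means at 0, 0.5 to 1.5 and 1.5 to 4.5. Read depth was unknown, so a missing cluster does not show that a site was unbound.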
